A study of Mus musculus with 6 samples.

Results

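The mitochondrial ribosomal protein genes were taken as every row of the expression table whose symbol is Mrpl or Mrps followed by a number and at most 1 letter from a to c. The rule gave 77 of the 46959 rows, and it used names alone, not measured values. The mitochondrial ribosome sits in the mitochondrial matrix and translates the few messenger RNAs made from mitochondrial DNA, all of which encode subunits of the respiratory chain and ATP synthase. Its ribosomal RNAs come from mitochondrial DNA, but all its proteins are encoded in the nucleus, made in the cytosol and imported. Some of these proteins have a bacterial counterpart, and others are particular to mitochondria. In beta cells, ATP made by the respiratory chain links glucose metabolism to insulin release.

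The samples were sorted from islets of adult mice that carried both Ins1-H2b-mCherry, a red nuclear reporter driven by an insulin promoter, and Ucn3-eGFP, a green reporter of Ucn3, which mature beta cells express. Immature beta cells were positive for mCherry alone, mature beta cells for both reporters, and double negative cells, the non-beta cells of the same islets, for neither. All 3 groups thus share both transgenes, and Ucn3, which served for the sort, and the insulin genes are no findings between them. There were 2 libraries of each group, 6 in all, each from islets pooled over several mice, cultured overnight in glucose-containing medium and dissociated with trypsin. The design text calls the animals female, whereas the sex label is male for replicate 1 of each group and female for replicate 2. Taken as given, the sex labels would mean that the 2 replicates of a group came from different mice and differ in sex. The design text conflicts with this, and no label states outright whether the mice were separate. The p-values measure the spread between these libraries, whatever it holds.

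Values are RPKM, reads scaled to transcript length and library depth, and differences are on the log2(RPKM + 1) scale, which understates the change of low genes. In each library, 78.1% to 83.8% of low values were whole multiples of the value of 1 read (within 0.02 reads), which gave the depths: 2393841 and 3448926 reads for the immature libraries, 23718091 and 26824380 for the mature pair, and 22063880 and 22731664 for the double negative pair. One read in a gene of 1 kb was thus worth 0.418 or 0.29 RPKM in the immature libraries, and 0.0373 to 0.0453 RPKM in the other 4. The median member had 56 and 88 reads in immature, 632 and 677 in mature, and 526 and 512 in double negative libraries. The SD of the log2 difference between the 2 libraries of a group, over the members, was 0.254 (immature), 0.0872 (mature) and 0.129 (double negative), so comparisons with immature cells are the least precise.

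The beta cell markers (6 of 6 present) summed to 72510 and 77540 RPKM in immature, 244600 and 261400 in mature and 4683 and 6967 in double negative libraries. The immature libraries also held markers of other cells. Alpha cell markers (5 of 5) summed to 29090 and 19780 RPKM in immature, 657.6 and 862.9 in mature and 178000 and 171600 in double negative libraries. Acinar markers (7 of 7) summed to 8755 and 27500 RPKM in immature, 175.2 and 121.1 in mature and 250.4 and 2091 in double negative libraries. Delta, PP, endothelial, immune and mesenchymal marker sums were likewise higher in both immature than in both mature libraries. The immune list summed to 1443 and 1498 RPKM in immature, against 3.283 and 3.053 in mature libraries, where 1 of its 6 genes was at 0. Ductal markers were lower in immature libraries (365.8 and 385.1 RPKM) than in mature ones (808.4 and 883). The part of these other cells in the results below was not tested, and in such bulk samples fewer cells of a type and less RNA per cell cannot be told apart.

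Promoters of the members were searched for short sequences bound by factors known for genes of mitochondrial function, and 41 of 68 members held at least 1 while 27 held none. A RefSeq table of promoter windows (assembly GRCm38.p6, 250 bases before to 50 after the annotated start) held 68 of the 77 members in 74 windows. Both strands were searched for the ETS core CCGGAAG, bound by GABP, for the NRF1 motif GCGCANGCG, whose letters can match both strands one base apart, and for the YY1 motif AAGATGGCG. The ETS core was in 33.8% of member windows, against 16.4% of windows of all tested genes and 8.86% of all windows. The NRF1 motif was in 21.6%, against 12.7% and 6.25%, and the YY1 motif in 10.8%, against 2.87% and 1.4%. At least 1 of the 3 was in 41 of 74 member windows (55.4%), against 28.2% and 14.8%. The 29 ETS matches lay at a median of 19 bases before the start (-19) and the 25 NRF1 matches at 49 before (-49), while the 8 YY1 matches lay at a median of 18.5 bases after it. These are matches of letters, not measured binding.

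**Figure D1:**
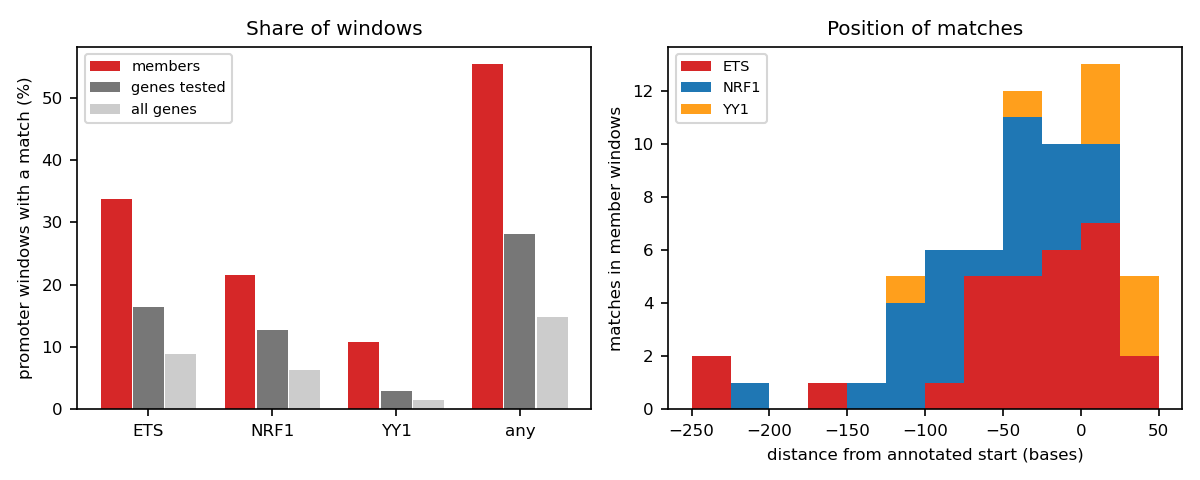
Left, percent of promoter windows (vertical axis) that hold a match to the ETS, NRF1 or YY1 motif or any of them, for the mitochondrial ribosomal protein genes, all tested genes and all genes of the table. Right, number of matches in member windows by distance from the annotated start in bases. In each set of bars the members' share is the highest, and 26 of 29 ETS, 19 of 25 NRF1 and 7 of 8 YY1 matches lie within 100 bases of the start.

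Windows of 5 members are printed because these members carry the differences described below and hold a match, with the matched letters in capitals and all other bases in lower case, 5′ to 3′ on the gene's strand. Mrps18b (chr17:35916391-35916690, minus strand) and Mrpl42 (chr10:95501900-95502199, minus strand) were higher in mature than in double negative cells. Mrpl36 (chr13:73330759-73331058, plus strand) was lower there. Mrpl37 (chr4:107066817-107067116, minus strand) was higher in immature than in mature cells, and Mrpl17 (chr7:105811038-105811337, minus strand) was lower. Mrps18b holds an NRF1 match far upstream and an ETS match at the end of the window, Mrpl17 holds 1 ETS and 2 NRF1 matches, and the other 3 hold a YY1 match, which in Mrpl42 and Mrpl37 lies just after the start. The windows of Mrps14, Mrpl24, Mrpl46 and Mrpl41, also described below, hold none of the 3 motifs.
Mrps18b: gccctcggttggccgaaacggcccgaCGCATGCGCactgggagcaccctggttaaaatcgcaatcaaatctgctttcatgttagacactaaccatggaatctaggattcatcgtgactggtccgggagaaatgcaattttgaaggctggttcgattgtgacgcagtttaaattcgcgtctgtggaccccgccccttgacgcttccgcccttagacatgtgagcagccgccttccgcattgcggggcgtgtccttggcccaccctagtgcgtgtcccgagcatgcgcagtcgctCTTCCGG
Mrpl42: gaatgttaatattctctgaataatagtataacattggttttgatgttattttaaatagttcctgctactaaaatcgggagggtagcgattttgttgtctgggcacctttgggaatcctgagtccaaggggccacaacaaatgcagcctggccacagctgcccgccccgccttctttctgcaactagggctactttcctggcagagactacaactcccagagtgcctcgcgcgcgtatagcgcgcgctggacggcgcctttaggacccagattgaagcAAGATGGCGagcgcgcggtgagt
Mrpl36: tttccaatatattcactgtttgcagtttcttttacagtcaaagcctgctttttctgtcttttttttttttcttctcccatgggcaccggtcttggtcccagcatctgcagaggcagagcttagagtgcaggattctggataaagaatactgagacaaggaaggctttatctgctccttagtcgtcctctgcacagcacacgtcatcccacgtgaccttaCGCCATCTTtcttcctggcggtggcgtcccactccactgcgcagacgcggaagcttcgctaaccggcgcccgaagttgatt
Mrpl37: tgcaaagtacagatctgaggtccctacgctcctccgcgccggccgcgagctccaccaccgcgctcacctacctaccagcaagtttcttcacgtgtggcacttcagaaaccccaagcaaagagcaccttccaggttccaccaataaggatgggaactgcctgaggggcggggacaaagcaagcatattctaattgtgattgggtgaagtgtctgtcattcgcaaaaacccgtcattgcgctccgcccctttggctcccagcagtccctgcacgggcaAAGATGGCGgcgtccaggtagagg
Mrpl17: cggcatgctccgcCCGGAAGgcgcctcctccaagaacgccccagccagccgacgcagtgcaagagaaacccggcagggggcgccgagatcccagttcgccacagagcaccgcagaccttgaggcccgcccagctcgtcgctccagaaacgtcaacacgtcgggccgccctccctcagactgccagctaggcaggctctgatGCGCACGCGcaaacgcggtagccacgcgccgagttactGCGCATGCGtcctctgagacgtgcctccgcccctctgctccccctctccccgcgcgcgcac

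Levels per length differed widely between members. The median member had a mean of 11.6 RPKM over the 6 libraries, 19 members had at least 20 RPKM and 17 had under 5. The 50 large subunit genes, among which Mrps30 and Mrps18a are counted by their place in the structure, had a median of 12.45 RPKM, and the 26 small subunit genes 8.025. The 46 genes with a bacterial counterpart had a median of 12.25 RPKM, and the 31 mitochondria-specific ones 9.19. Longer transcripts had lower RPKM across the 76 members with a usable length (645 to 8631 bases; Spearman -0.64 across genes, a description only, since RPKM is itself divided by length).

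Mrpl36, a small protein of the large subunit with a bacterial counterpart, had the highest mean at 45.1 RPKM, with 42.3 and 37.7 in immature, 40.7 and 37.6 in mature and 57.0 and 55.2 in double negative libraries. Mrpl54 followed at 42.8, with 40.0 and 46.0 in immature, 45.2 and 52.3 in mature and 35.8 and 37.2 in double negative libraries. Mrps16, of the small subunit, also had a mean of 42.8, with 46.5 and 46.6 in immature, 43.2 and 42.7 in mature and 37.4 and 40.6 in double negative libraries. These 3 overlap in level over the 6 libraries. Mrps12, the counterpart of the bacterial protein S12 at the decoding centre, came next at 30.0 RPKM.

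At the low end, Mrps35 had 2.23 and 1.34 RPKM in immature, 2.1 and 2.03 in mature and 2.07 and 2.1 in double negative libraries. Mrps36, named as a ribosomal protein but known as a part of the 2-oxoglutarate dehydrogenase complex and not found in the assembled ribosome, had a mean of 1.22 RPKM. Mrpl23 (mean 0.508 RPKM) and Mrpl53 (0.214 RPKM) stayed under 1 RPKM in all 6 libraries and were not tested. Mrpl53 had 1 and 1 read in immature, 3 and 0 in mature and 3 and 1 in double negative libraries, and 88% of its exon bases overlap another annotated gene. In all, 32 members share some exon bases with another gene and 10 share over 20%, and the sources used here do not say how reads in such bases were counted.

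**Figure D2:**
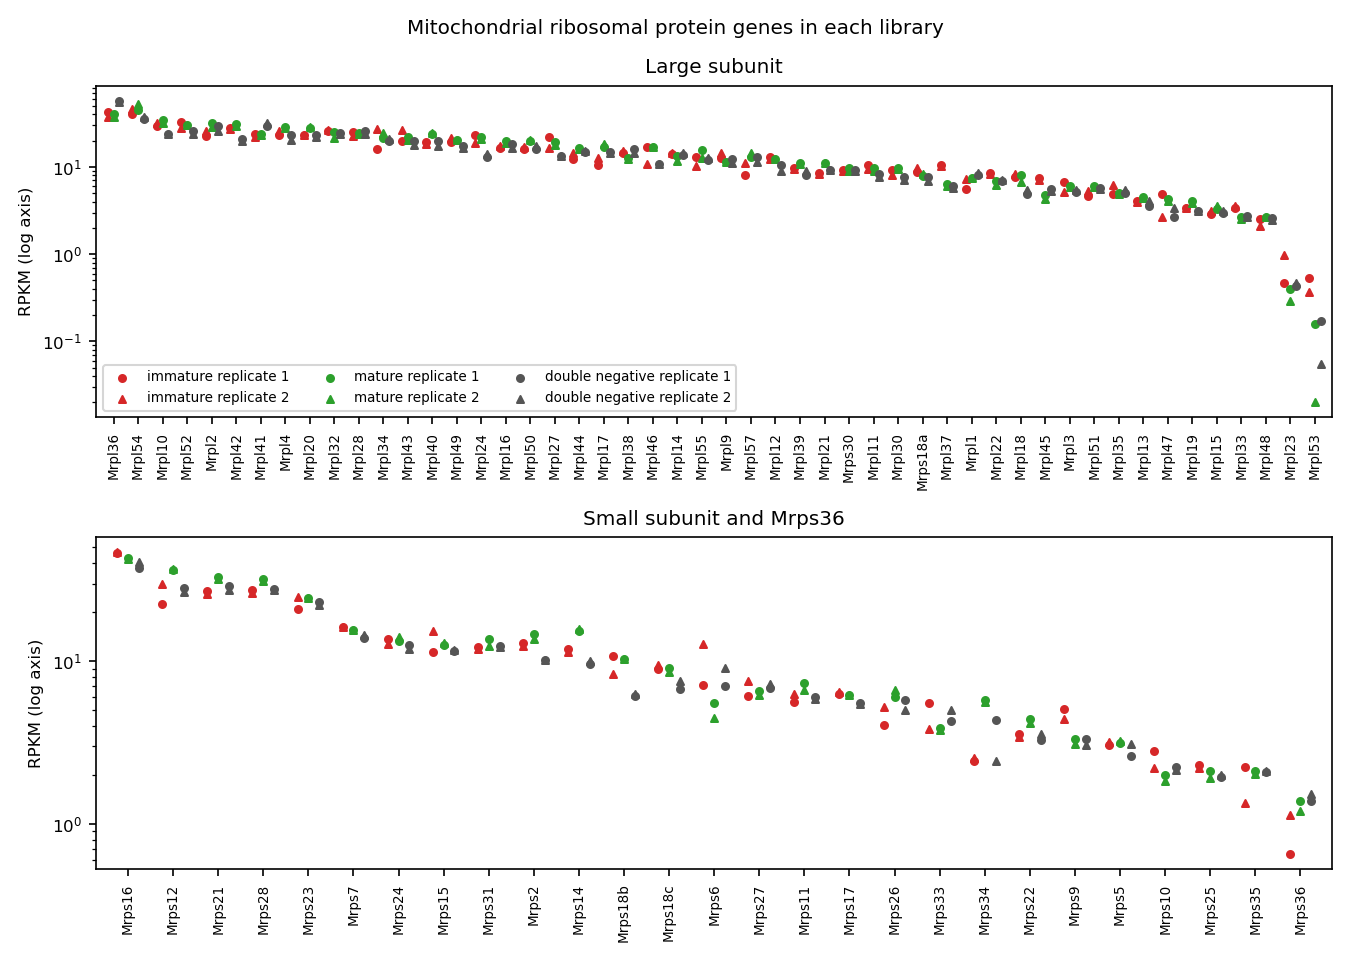
RPKM on a log axis (vertical) of each member (horizontal, ordered by mean) in the 6 libraries, with colours for groups and shapes for replicates, for the large subunit (top) and the small subunit with Mrps36 (bottom). Levels run from 45.1 RPKM for Mrpl36 to 0.214 for Mrpl53, whose value of 0 in mature replicate 2 is drawn at the foot of the axis, and the 6 libraries of most members lie close together.

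As deposited, the summed RPKM of the members varied little between groups, while their share of other sums depended on the measure. Their RPKM summed to 1017 and 1041 in immature, 1108 and 1084 in mature and 976.2 and 957.5 in double negative libraries. As a share of reads this was 0.197% (95% Wilson interval 0.192 to 0.203) and 0.199% (0.194 to 0.204) in immature, 0.211% (0.209 to 0.213) and 0.206% (0.205 to 0.208) in mature, and 0.184% (0.182 to 0.186) and 0.182% (0.18 to 0.183) in double negative libraries, where the intervals cover counting error only. The share was thus highest in both mature and lowest in both double negative libraries. As a share of summed RPKM the order was another: 0.271% and 0.264% in immature, 0.233% and 0.221% in mature and 0.228% and 0.223% in double negative libraries. The 50 highest genes took 42.5% and 43.8% of summed RPKM in immature, 60.5% and 62.4% in mature and 59.7% and 59.8% in double negative libraries, and without them the members' share was 0.472% and 0.47% in immature, 0.59% and 0.587% in mature, and 0.565% and 0.556% in double negative libraries.

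Ratios within a library do not depend on its scaling. The large subunit genes summed to 2.41 and 2.33 times the small subunit genes in immature, 2.34 and 2.32 times in mature and 2.43 and 2.37 times in double negative libraries, so the immature libraries overlapped both other groups. Against the summed RPKM of 76 nuclear genes for respiratory chain and ATP synthase subunits, the members stood at 0.269 and 0.282 in immature, 0.242 and 0.237 in mature and 0.245 and 0.249 in double negative libraries. Both immature libraries had the higher ratio, which was made up of a respiratory sum of 3779 and 3691 RPKM in immature, 4580 and 4580 in mature and 3990 and 3849 in double negative libraries. Against the cytosolic ribosomal protein genes the order was another: the ratio was 0.232 and 0.247 in immature, 0.269 and 0.266 in mature and 0.226 and 0.225 in double negative libraries.

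**Figure D3:**
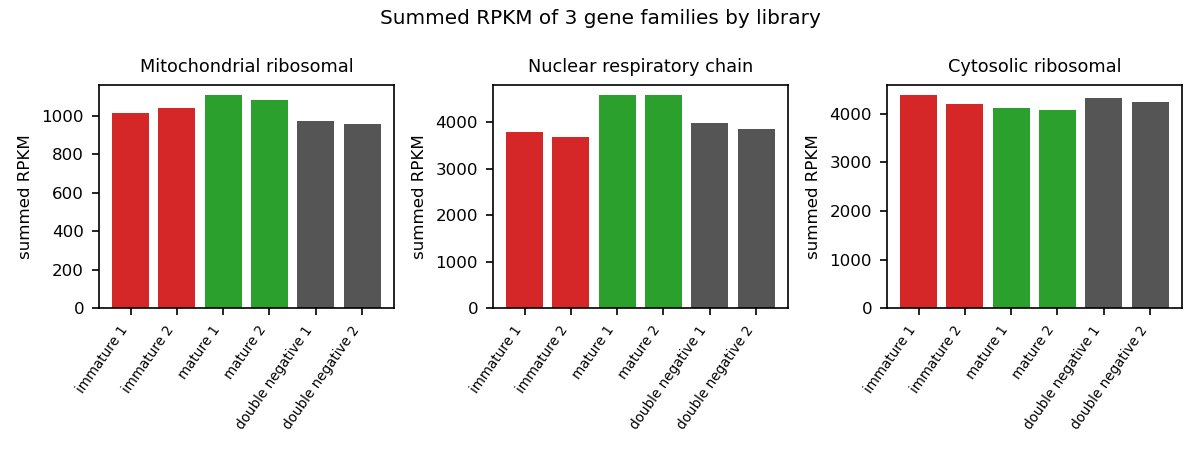
Summed RPKM (vertical axis, from 0) of the mitochondrial ribosomal protein genes, the nuclear respiratory chain genes and the cytosolic ribosomal protein genes in each of the 6 libraries. The mitochondrial ribosomal sum lies between 957.5 and 1108 RPKM, and both mitochondrial families are highest in the 2 mature libraries.

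Gene by gene, the highest group mean was a median of 1.22 times the lowest over the 75 tested members (on deposited RPKM + 1). Of these members, 68 (90.7%) stayed under 1.5 times and all 75 under 2. Over all 13367 tested genes the median was 1.54 and 47.2% stayed under 1.5 times. Over 75 nuclear respiratory genes these were 1.26 and 82.7%, and over 77 cytosolic ribosomal protein genes 1.35 and 70.1%. The sets were not matched for level. Neither these folds nor the highest groups below were computed under another scaling. The mature group had the highest mean for 43 members (57.3%), against 24.9% of all tested genes. Immature cells had it for 24 (32%), against 55.3%, and double negative cells for 8 (10.7%), against 19.8%.

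Immature against mature beta cells asks how beta cells without the Ucn3 reporter differ from those with it. Most members did not pass the test, and those that did went both ways: 6 of 75 were higher and 12 lower in immature cells (limma, Benjamini-Hochberg adjusted p under 0.05). Over all 13367 genes tested, 46.4% were called higher and 13.8% lower, 60.1% in all, so the members held a smaller share of higher calls (8%) and a like share of lower ones (16%). The members' median difference was -0.11, against 0.29 over all genes. Both immature libraries lay above both mature for 16 members and below for 31, against 60.0% and 22.5% of all genes, and 28 overlapped.

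These counts rest on how libraries are scaled. With median-ratio rescaling, which moved the median of all genes from 0.285 to 0.001, 1 member was higher and 50 lower, against 31.3% and 29.9% of all genes. Quantile normalization gave 45 lower and, by limma, 0 higher (1 at an unadjusted p under 0.05), against 36.5% lower and 21.1% higher of all genes, whose median moved to -0.17. Totals without the 50 highest genes gave 2 higher and 32 lower members, against 34.7% and 23.0% of all genes. The members' median stayed below that of all genes, with a gap of -0.39 as deposited. Median-ratio rescaling and totals without the 50 highest genes multiply all values of a library by the same factor. They could thus hardly move this gap, which was -0.4 under each, and do not test it. Quantile normalization could move the gap, which shrank to -0.23. Without immature replicate 1 the members' median was -0.1, against 0.27 over all genes. Without immature replicate 2 it was -0.05, against 0.31. Fewer members and fewer of all genes were called in each of these fits. Without mature replicate 2 the medians were -0.1 and 0.27.

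Lower in immature cells were 5 small and 7 large subunit genes. Mrpl17 (chromosome 7, 105803206 to 105811099, GRCm38), of the large subunit, had 10.6 and 12.6 RPKM in immature libraries, against 16.9 and 18.4 in mature, a difference of -0.57 (SE 0.11, adjusted p = 0.00366). Mrps12 (chromosome 7, 28739641 to 28741820) had 22.5 and 29.8 RPKM in immature, against 36.2 and 37.0 in mature libraries (-0.48, SE 0.11, adjusted p = 0.00797). In both genes the groups did not overlap, but the 2 immature libraries stood well apart in Mrps12. Mrps14 (chromosome 1, 160195215 to 160202170), of the head of the small subunit, had 11.8 and 11.3 RPKM in immature, against 15.3 and 15.7 in mature libraries (-0.40, SE 0.08, adjusted p = 0.00498). Mrpl21, a large subunit protein with a bacterial counterpart, had 8.52 and 8.22 RPKM in immature against 11.2 and 11 in mature libraries (-0.37, SE 0.08, adjusted p = 0.00685).

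Mrps34 (chromosome 17, 24895116 to 24897502), a mitochondria-specific small subunit protein, had the largest difference of any tested member. It had 2.43 and 2.53 RPKM in immature libraries, from 12 and 18 reads, against 5.8 and 5.62 in mature, from 284 and 311 reads (-0.95, SE 0.28, adjusted p = 0.0225). Other genes overlap 77.8% of its exon bases: Nme3 on the same strand was listed at 0 in all 6 libraries, and Mapk8ip3 on the opposite strand had 13.3 and 15.3 RPKM in immature and 10.9 and 9.45 in mature libraries. The library kit does not mark strand, so reads of Mrps34 and Mapk8ip3 cannot be told apart there. Mrpl57, a short mitochondria-specific protein, had 8.1 and 11 RPKM in immature, against 13.1 and 14.4 in mature libraries (-0.50, SE 0.15, adjusted p = 0.0281). The other lower members, Mrpl40, Mrpl20, Mrps21, Mrpl44, Mrpl50 and Mrps28, differed by -0.36 to -0.23.

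None of these 6 calls held in all 17 alternative settings, though all kept their direction. Without the filter on low values the calls of Mrps34 (-0.95) and Mrpl57 (-0.50) were lost. Without immature replicate 1 the calls of Mrps34 (-0.93), Mrpl17 (-0.46), Mrpl57 (-0.30) and Mrps12 (-0.29) were lost. Without immature replicate 2 those of Mrps34 (-0.97), Mrps14 (-0.37) and Mrpl21 (-0.35) were lost, and without mature replicate 2 that of Mrpl57 (-0.43). Adjusted p over the 17 settings ran from 0.00149 to 0.139 for Mrps34, 0.000816 to 0.0542 for Mrpl17, 0.00609 to 0.275 for Mrpl57, 0.00137 to 0.0856 for Mrps12, 0.000448 to 0.0501 for Mrps14 and 0.000309 to 0.0595 for Mrpl21.

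Higher in immature cells were 4 large and 2 small subunit genes. Mrpl37 (chromosome 4, 107055874 to 107066868), a mitochondria-specific large subunit protein, had 10.6 and 10.1 RPKM in immature libraries, against 6.34 and 6.03 in mature (0.66, SE 0.10, adjusted p = 0.00112). Its immature values lay above those of all 4 other libraries, and no annotated gene overlaps its exons. Mrpl45, which ties the ribosome to the inner membrane near the exit of the new protein, had 7.4 and 7.04 RPKM in immature, against 4.76 and 4.31 in mature libraries (0.57, SE 0.12, adjusted p = 0.00542). Mrps9, a small subunit protein with a bacterial counterpart, had 5.07 and 4.43 RPKM in immature against 3.3 and 3.11 in mature libraries (0.45, SE 0.12, adjusted p = 0.0155).

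Mrps6 (chromosome 16, 92058270 to 92112227), the counterpart of bacterial S6, had 7.14 and 12.7 RPKM in immature libraries, from 18 and 46 reads, against 5.57 and 4.46 in mature (0.82, SE 0.27, adjusted p = 0.0344). Its immature libraries differed from each other more than the nearer one differed from mature. Slc5a3, a gene on the same strand that overlaps part of its exons (19.9% overlapped in all), had 1.07 and 1.51 RPKM in immature against 0.452 and 0.444 in mature libraries. Mrpl22 had 8.52 and 8.28 RPKM in immature against 6.88 and 6.19 in mature libraries (0.32, SE 0.12, adjusted p = 0.0479). Mrpl33 had 3.42 and 3.52 RPKM in immature against 2.67 and 2.54 in mature libraries (0.31, SE 0.11, adjusted p = 0.045).

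The higher calls depended on scaling. Under quantile normalization Mrps9 (-0.18), Mrpl22 (-0.12) and Mrpl33 (-0.40) changed sign, and Mrpl37 (0.24), Mrpl45 (0.06) and Mrps6 (0.35) kept it but were not called. Mrpl37 was called in all its other settings (adjusted p 8.58e-05 to 0.0576 over 17). Median-ratio rescaling also ended the calls of Mrps6 (0.51), Mrpl45 (0.27), Mrps9 (0.17), Mrpl22 (0.01) and Mrpl33 (0.05). Totals without the 50 highest genes ended those of Mrps6 (0.61), Mrps9 (0.26), Mrpl22 (0.12) and Mrpl33 (0.14). Without the filter on low values those of Mrps6, Mrpl22 and Mrpl33 were lost too. Of single libraries, immature replicate 1 decided Mrpl45 (0.54 without it), immature and mature replicate 2 decided Mrps6 (0.44 and 0.68), either immature library decided Mrps9 (0.37 and 0.53), and every library but mature replicate 1 decided Mrpl22 (0.25 to 0.34) and Mrpl33 (0.28 to 0.33).

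Mature beta against double negative cells compares beta cells with the alpha, delta and other non-beta cells of the same islets. Here the members leaned one way: 34 of 75 were higher and 5 lower in mature cells by the same test, against 28.7% higher and 39.4% lower (68.1% in all) over all genes tested. The members' median difference was 0.15, against -0.08 over all genes, and 36 did not pass. Both mature libraries lay above both double negative for 53 members and below for 11, against 35.5% and 49.4% of all genes. Higher were 21 of 48 large and 13 of 26 small subunit genes, and 23 of 45 with a bacterial counterpart and 11 of 30 mitochondria-specific. With 1 library left out in turn, the members' median was between 0.14 and 0.18, and that of all genes between -0.1 and -0.06. In each of these fits fewer members and fewer of all genes were called higher.

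The members' median stayed above 0 under every scaling, at 0.23 with median-ratio rescaling, 0.19 with quantile normalization and 0.05 with totals without the 50 highest genes. These gave 48 higher and 4 lower, 42 and 5, and 25 and 12 members. Of all genes, 33.4% were higher and 35.2% lower under the first, 35.9% and 31.4% under the second, and 23.6% and 46.7% under the third.

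Among small subunit genes, Mrps18b (chromosome 17, 35910379 to 35916389) is 1 of 3 mammalian relatives of bacterial S18. Of these, Mrps18c was counted here with a bacterial counterpart, and Mrps18a and Mrps18b as mitochondria-specific. Mrps18b had 10.3 and 10.4 RPKM in mature libraries, against 6.07 and 6.3 in double negative (0.65, SE 0.06, adjusted p = 0.0001). Mrps14 had 15.3 and 15.7 RPKM in mature, against 9.61 and 10.0 in double negative libraries (0.61, SE 0.05, adjusted p = 2.99e-05). In both genes the 2 libraries of a group were nearly equal and the groups stood clearly apart. Gm16279, a gene on the opposite strand that overlaps 30.5% of the exon bases of Mrps18b, had at most 0.591 RPKM in any library. Mrps34 had 5.8 and 5.62 RPKM in mature, against 4.37 and 2.45 in double negative libraries (0.64, SE 0.16, adjusted p = 0.0106), and its double negative libraries stood apart from each other: the difference was 0.96 without double negative replicate 1 and 0.32 without double negative replicate 2. Mapk8ip3, which overlaps it, had 10.9 and 9.45 RPKM in mature and 7.73 and 7.65 in double negative libraries.

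Among large subunit genes, Mrpl24 (chromosome 3, 87919506 to 87923672), whose bacterial counterpart lies at the exit of the peptide tunnel, had 22.3 and 20.7 RPKM in mature libraries, against 12.9 and 14.2 in double negative (0.63, SE 0.07, adjusted p = 0.000193). Rrnad1 on the opposite strand overlaps 26.3% of its exon bases and had 2.01 and 1.86 RPKM in mature against 2.32 and 2.25 in double negative libraries. Mrpl46 (chromosome 7, 78775236 to 78783531), of the central protuberance, had 17 and 16.8 RPKM in mature, against 10.7 and 10.8 in double negative libraries (0.61, SE 0.08, adjusted p = 0.000635). Mrps11 starts head to head with it on the other strand and shares 12.2% of the exon bases of Mrpl46. Mrps11 had 7.34 and 6.64 RPKM in mature against 6.03 and 5.89 in double negative libraries (0.20, SE 0.07, adjusted p = 0.0398). Mrpl42 (chromosome 10, 95480805 to 95501940), a mitochondria-specific protein, had 31.4 and 29.4 RPKM in mature against 21 and 19.9 in double negative libraries (0.55, SE 0.05, adjusted p = 8.48e-05).

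The other 28 higher members differed by 0.12 to 0.46. They include Mrpl10 (0.45) and Mrpl12 (0.31), which form the stalk of the large subunit, and Mrps12 (0.41), Mrpl27 (0.46) near the peptidyl transferase centre, and Mrpl54 (0.41).

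Lower in mature than in double negative cells were 5 members. Mrpl36 (chromosome 13, 73328513 to 73332178) had 40.7 and 37.6 RPKM in mature libraries, against 57.0 and 55.2 in double negative (-0.51, SE 0.06, adjusted p = 0.000189). Mrpl41 (chromosome 2, 24974117 to 24975098), a mitochondria-specific large subunit protein, had 23.6 and 23.5 RPKM in mature against 29.8 and 32 in double negative libraries (-0.37, SE 0.05, adjusted p = 0.00033). In both genes the libraries of the 2 groups did not overlap. Mrps6 had 5.57 and 4.46 RPKM in mature, against 7.06 and 9.07 in double negative libraries (-0.59, SE 0.16, adjusted p = 0.0131), and Slc5a3 had 0.452 and 0.444 RPKM in mature against 0.997 and 1.25 in double negative libraries. Mrpl38, of the central protuberance, had 12.6 and 12.4 RPKM in mature against 15.9 and 14.6 in double negative libraries (-0.27, SE 0.05, adjusted p = 0.00308). Mrpl45 had 4.76 and 4.31 RPKM in mature against 5.57 and 5.29 in double negative libraries (-0.22, SE 0.07, adjusted p = 0.0267).

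Of the 11 members named for this comparison, Mrps18b, Mrps34, Mrpl24, Mrpl46, Mrps14, Mrpl42, Mrpl36, Mrpl41 and Mrpl38 kept their call in all 18 alternative settings, with the highest adjusted p at 0.0487 for Mrps34. Mrps6 lost it without double negative replicate 2 (-0.43), without the filter on low values and without group weights (adjusted p 0.000668 to 0.122 over 18 settings). Mrpl45 lost it in 8 of 18 settings (-0.31 to -0.06, adjusted p 0.00465 to 0.364), among them without immature replicate 1 (-0.22), mature replicate 2 (-0.16) or either double negative library (-0.19 and -0.25).

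**Figure D4:**
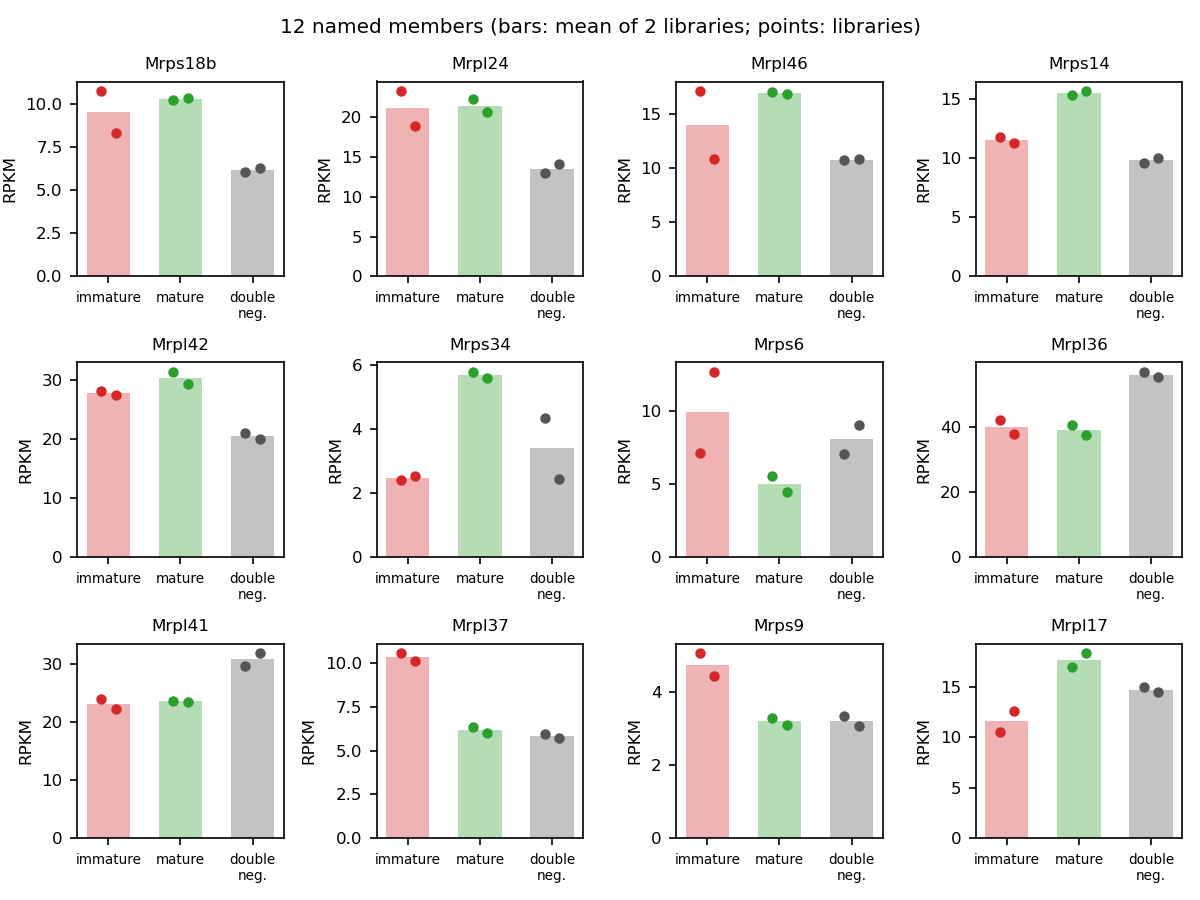
RPKM (vertical axes, from 0) of 12 members with large differences, with bars for the mean of the 2 libraries of each group and points for the libraries. Mrps18b, Mrpl24, Mrpl46, Mrps14 and Mrpl42 are higher in both mature than in both double negative libraries, Mrpl36 and Mrpl41 are lower, and Mrpl37 and Mrps9 are highest in both immature libraries.

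Immature beta against double negative cells gave the fewest calls: 8 of 75 members were higher and 2 lower in immature cells, against 38.2% higher and 8.42% lower (46.6% in all) over all genes. The members' median was 0.10, against 0.24 over all genes, and turned to -0.13, -0.28 and -0.20 with median-ratio rescaling, quantile normalization and totals without the 50 highest genes. Those scalings gave 2 higher and 14 lower, 1 and 26, and 1 and 20 members, where 17.7%, 25.2% and 21.1% of all genes were lower and 23.8%, 17.6% and 20.8% higher. Both immature libraries lay above both double negative for 33 members and below for 10, against 59.1% and 17.1% of all genes. Without immature replicate 1 the members' median was 0.09, against 0.23 over all genes. Without immature replicate 2 it was 0.08, against 0.27. Fewer members and fewer of all genes were called in both of these fits. This comparison shares its libraries with the other 2, so its values are not independent of them.

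Mrpl37 had 10.6 and 10.1 RPKM in immature libraries, against 5.98 and 5.71 in double negative (0.73, SE 0.10, adjusted p = 0.00147), and it alone of the 8 named members kept its call in all 17 alternative settings. Mrpl24 had 23.3 and 18.9 RPKM in immature, against 12.9 and 14.2 in double negative libraries (0.60, SE 0.13, adjusted p = 0.00852). Mrps18b had 10.8 and 8.33 RPKM in immature against 6.07 and 6.3 in double negative libraries (0.55, SE 0.12, adjusted p = 0.00864). Mrpl42 had 28.2 and 27.4 RPKM in immature against 21 and 19.9 in double negative libraries (0.43, SE 0.09, adjusted p = 0.01). Each of these had both immature libraries above both double negative ones. Mrpl27 (0.49, adjusted p = 0.0256) and Mrps9 (0.45, adjusted p = 0.0253) were called higher too, as were Mrpl10 (0.34) and Mrps16 (0.25).

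Lower in immature cells were Mrpl36, with 42.3 and 37.7 RPKM in immature against 57.0 and 55.2 in double negative libraries (-0.48, SE 0.10, adjusted p = 0.00875), and Mrpl41, with 24.0 and 22.2 RPKM in immature against 29.8 and 32 in double negative libraries (-0.40, SE 0.08, adjusted p = 0.00793). Without immature replicate 2 both calls were lost, at -0.40 and -0.35 (adjusted p up to 0.0865 and 0.0733 over 17 settings). Without immature replicate 1 those of Mrpl24 (0.45), Mrps18b (0.38), Mrpl27 (0.29), Mrps9 (0.37) and Mrpl42 (0.41) were lost, and without immature replicate 2 those of Mrps9 (0.53) and Mrpl42 (0.45). Mrpl27 was also lost without either double negative library (0.49 and 0.48) and Mrps9 without double negative replicate 2 (0.40). Totals without the 50 highest genes lowered Mrpl24 to 0.28, Mrps18b to 0.25, Mrpl27 to 0.17, Mrps9 to 0.18 and Mrpl42 to 0.10, none of them called.

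**Figure D5:**
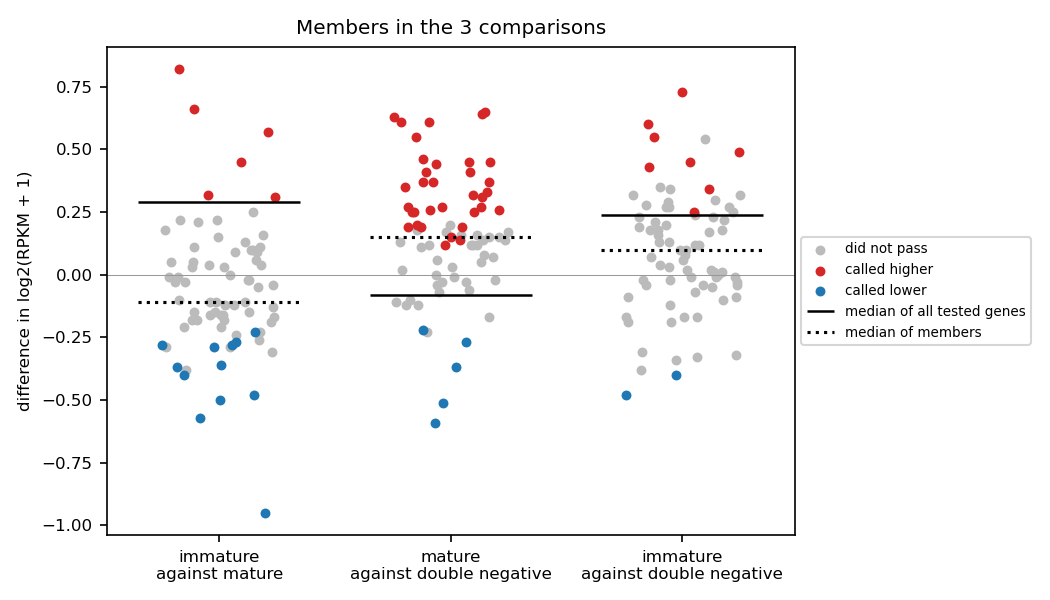
Difference in log2(RPKM + 1) (vertical axis) of each of the 75 tested members in the 3 comparisons, coloured by call, with lines for the median of all tested genes and of the members. The members' median is -0.11 against 0.29 for immature against mature, 0.15 against -0.08 for mature against double negative, and 0.10 against 0.24 for immature against double negative.

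The other genes of mitochondrial translation were read from lists by role, and of their named results those that kept their call in every alternative setting are given with values. Over all tested genes, 28.7% were called higher in mature than in double negative cells and 39.4% lower (median -0.08). Of 6 proteins of the mitochondrial ribosome with other names, 5 (83.3%) were called higher there and the sixth did not pass (median 0.39). With mature replicate 1, mature replicate 2 or double negative replicate 2 left out in turn, fewer were called higher, as was true over all genes. In this list 1 was higher and 1 lower in immature than in mature cells, against 46.4% and 13.8% of all genes. Aurkaip1, of the small subunit, had 33.11 and 33.18 RPKM in mature, against 21.3 and 20.38 in double negative libraries (0.65, SE 0.06, adjusted p = 7.46e-05). Ict1, a peptide-releasing hydrolase built into the large subunit, had 10.25 and 9.409 RPKM in mature against 7.604 and 6.509 in double negative libraries (0.43, SE 0.08, adjusted p = 0.00296).

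Of 25 tested assembly factors, 11 (44%) were called higher in mature than in double negative cells and 14 did not pass (median 0.19). Of all genes, 28.7% were higher and 39.4% lower there (median -0.08), and 46.4% higher and 13.8% lower in immature against mature cells. With median-ratio rescaling 29.9% of all genes were lower in the latter comparison. The RNA helicase Ddx28, which helps build the large subunit, had 11.69 and 11.64 RPKM in mature, against 5.069 and 5.076 in double negative libraries (1.06, SE 0.05, adjusted p = 2.78e-06). It was also lower in immature libraries, at 6.833 and 6.665 RPKM, than in mature (-0.71, SE 0.08, adjusted p = 0.000462). Ngrn, which binds the large ribosomal RNA, had 37.27 and 38.58 RPKM in mature and 26.87 and 26.56 in double negative libraries (0.49, SE 0.04, adjusted p = 7.45e-05). In immature libraries it had 26.08 and 23.18 RPKM (-0.61 against mature, SE 0.08, adjusted p = 0.000603). Tfb1m, which methylates the small ribosomal RNA, had 6.799 and 6.658 RPKM in mature against 3.415 and 4.144 in double negative libraries (0.70, SE 0.08, adjusted p = 0.000194). C1qbp, a matrix protein, had 22.26 and 21.11 RPKM in mature against 14.07 and 14.18 in double negative libraries (0.58, SE 0.06, adjusted p = 0.000126). In immature against mature cells 2 assembly factors were called higher and 2 lower, but 13 were lower with median-ratio rescaling. Without immature replicate 1, immature replicate 2 or mature replicate 1 fewer were called higher, as was true over all genes.

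Translation factors and synthetases went both ways in mature against double negative cells. Their shares of higher calls, 33.3% and 25%, were near the 28.7% of all genes. Their shares of lower calls, 20% in each list, were below the 39.4% of all genes. Of 15 tested translation factors, 5 were higher and 3 lower in mature than in double negative cells, among them Gfm2 (0.63, SE 0.07, adjusted p = 0.000135) and Mrrf (0.38, SE 0.07, adjusted p = 0.00232), which recycle ribosomes after termination, and Taco1 (0.36, SE 0.05, adjusted p = 0.000749), an activator of mt-Co1 translation. Without double negative replicate 2 fewer were called in each direction, as was true over all genes. Of 20 mitochondrial aminoacyl-tRNA synthetases and amidotransferase subunits, 5 were higher and 4 lower there, with Sars2 at 6.379 and 6.48 RPKM in mature against 3.441 and 3.708 in double negative libraries (0.70, SE 0.07, adjusted p = 9.84e-05). Nars2 (0.52, SE 0.09, adjusted p = 0.00143) and Qrsl1 (0.41, SE 0.07, adjusted p = 0.00139) were higher too. Without mature replicate 2 or double negative replicate 1 fewer of this list were called lower, as was true over all genes. In immature against mature cells 9 of these 20 (45%) were called higher, close to the 46.4% of all genes, and 11 did not pass. Quantile normalization turned that to 2 higher and 8 lower, against 21.1% and 36.5% of all genes. With either immature library left out in turn, fewer were called higher, as was true over all genes. Hars2 had 9.372 and 9.622 RPKM in immature, against 5.222 and 4.957 in mature libraries (0.79, SE 0.10, adjusted p = 0.000674). Lars2 had 297.1 and 102.7 RPKM in immature, against 35.43 and 43.22 in mature libraries (2.13, SE 0.41, adjusted p = 0.00384), with its immature libraries far apart. In immature against double negative cells Qrsl1, a subunit of the amidotransferase, had 5.461 and 4.717 RPKM in immature against 2.094 and 2.288 in double negative libraries (0.93, SE 0.12, adjusted p = 0.00118).

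The genes of the factors whose motifs were searched did not move alike. Nrf1 had 4.925 and 4.967 RPKM in mature, against 2.367 and 2.503 in double negative libraries (0.79, SE 0.07, adjusted p = 4.94e-05). Gabpa, which binds the ETS core, had 6.658 and 6.286 RPKM in mature against 7.946 and 9.468 in double negative libraries (-0.37, SE 0.08, adjusted p = 0.00392), and Yy1 had 16.71 and 16.37 RPKM in mature against 22.18 and 21 in double negative libraries (-0.36, SE 0.05, adjusted p = 0.000419). Myc, a transcription factor known to raise ribosome genes, had 18.12 and 15.72 RPKM in immature, 4.495 and 4.513 in mature and 5.373 and 6.185 in double negative libraries (immature against mature 1.70, SE 0.12, adjusted p = 3.42e-05, and immature against double negative 1.40, SE 0.12, adjusted p = 0.00021). Pprc1, a coactivator of NRF1, had 14.06 and 11.38 RPKM in immature, against 6.569 and 6.785 in mature libraries (0.83, SE 0.11, adjusted p = 0.000835).

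The partner families were counted the same way. Of 75 nuclear respiratory chain genes, 1 was higher and 34 lower in immature than in mature cells (median -0.23), against 6 and 12 of 75 members and 46.4% and 13.8% of all genes. With either immature library left out in turn, fewer respiratory genes were called lower, as was true over all genes. In mature against double negative cells 42 respiratory genes were higher and 6 lower (median 0.19), against 28.7% and 39.4% of all genes. Quantile normalization gave 24 and 23, against 35.9% and 31.4% of all genes. Of 77 tested cytosolic ribosomal protein genes, 36 (46.8%) were higher and 5 lower in immature than in mature cells, with a median of 0.30, close to the 46.4% and 0.29 of all genes. Median-ratio rescaling turned that to 15 and 19, against 31.3% and 29.9% of all genes. With either immature library left out in turn, fewer were called higher, as was true over all genes. In mature against double negative cells 8 were higher and 30 lower (39%, median -0.13), the latter close to the 39.4% of all genes. Without mature replicate 1 fewer were called higher, as was true over all genes. Of the 13 protein genes of mitochondrial DNA, 7 were tested in mature against double negative cells. Of these, 1 (14.3%) was called higher in mature cells, against 28.7% of all genes, and 6 did not pass. The called gene, mt-Co1, had 3017 and 2789 RPKM in mature against 2140 and 2405 in double negative libraries (0.35, SE 0.08, adjusted p = 0.0071). The difference between these families and the members was not tested.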

How the data were processed

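RNA-seq libraries of 6 sorted islet cell samples, 2 for each of 3 groups, were analysed. The authors deposited 1 table of RPKM values for 46959 rows. The submitters' processing notes name STAR 2.5, featureCounts, edgeR 3.14.0 and the build GRCm38.p4; other steps and settings were not given in the sources used here.

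The 13367 genes with at least 1 RPKM in 2 libraries or more were fitted with limma 3.58.1 (R 4.3.3) on log2(RPKM + 1), with all 6 libraries, an intensity trend and 1 variance weight for each group, and p-values were adjusted by Benjamini-Hochberg at 0.05. Reads were recovered from RPKM steps with exon lengths of GENCODE M21 (within 0.02 reads of whole), which placed 12786 tested genes (95.7%), 56 members by that length and 20 by the step itself. Gene positions are from GENCODE M21 on GRCm38. The fit was tested on simulated data with the same added spread in every group (SD 0.0452, log2 scale). In the measured data the immature libraries varied most, so the test does not show the error of their calls. In the simulation, 17 of 168 calls were false for immature against mature and 27 of 184 for immature against double negative. For mature against double negative 7 of 192 were false. The share of false calls was thus above the nominal 0.05 in both comparisons with immature cells and below it in the other.

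Chosen to be named were the called members with the largest differences that moved one way in both same-numbered pairs, at most 6 in each direction and comparison. The 4 highest and 4 lowest members and at most 4 called genes of each other list in a comparison were chosen too. Some of these are given without values in every library, or are only counted. Members, lists and weights were chosen with earlier results of these data known. Other filters, pseudocounts, scalings, weights, a replicate block, voom on recovered reads and leaving out each library were tried; a lone library was then assumed to vary like its group in the full fit. No protein sequences were used here.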

Additional observations from a re-analysis of the deposited data

How the results depend on the processing

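Counts are of members called higher and lower, of 75 tested unless stated. The shares of all genes under the 3 other scalings are given above. With no filter on low values, 3 of 77 were higher in immature against mature cells, and 4 of 77 in immature against double negative. The share of all genes called higher fell there too, from 46.4% to 25.1% and from 38.2% to 18%. With a filter of 5 RPKM, 13 of 62 were higher in immature than in double negative cells, against 42.0% of all genes. Without group weights 21 were higher there, against 45.9% of all genes. Without these weights 3 were lower in mature than in double negative cells, against 31.2% of all genes. With median-ratio rescaling, 1 was higher and 50 lower in immature against mature, and 2 and 14 in immature against double negative. With quantile normalization these were 0 and 45, and 1 and 26, where limma called none higher in the first although 1 had an unadjusted p under 0.05. With totals without the 50 highest genes they were 2 and 32, and 1 and 20, with 12 lower in mature against double negative. With voom on recovered reads, 7 were lower in immature against mature and 13 higher in immature against double negative. Of all genes these were 13.6% and 44.8%. Leaving out a library each gave 2 to 8 higher and 3 to 12 lower for immature against mature, 25 to 32 and 3 to 6 for mature against double negative, and 1 to 10 and 1 to 3 for immature against double negative. Quantile normalization reversed Mrps9 (-0.18), Mrpl22 (-0.12) and Mrpl33 (-0.40) in immature against mature. The cause of these shifts was not tested. Of the 31 named results on members, 10 kept their call throughout, and 20 lost it in at least 1 fit without a library. The replicate block gave 5 and 13, 31 and 5, and 8 and 2 calls and ended 1 of the 31, Mrpl33 in immature against mature. Same-numbered libraries share a number and a sex label, and the labels do not say whether they share mice or a sort: their deviations correlated at -0.00933, -0.112 and 0.14 over genes for the 3 pairs of groups. Crossed numbers for mature and double negative, added after the data were seen, gave 34 and 7 calls, against 28.8% and 39.9% of all genes. The immature libraries, at 2393841 and 3448926 reads, are the shallowest, which limits both comparisons that use them.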
